A study of Mus musculus with 18 samples.

Results

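NF-kB is a family of transcription factors built from the subunits Nfkb1, Nfkb2, Rel, Rela and Relb. These genes were examined here together with 5 genes for proteins that regulate the family: Nfkbia, Nfkbid, Bcl3, Tnfaip3 and Tnip1. Bcl3 is grouped here with the inhibitors, although its protein can also turn NF-kB dimers into activators. A gene was included when an array row was annotated with its symbol alone, and the brightest such transcript cluster stood for the gene. Of the 10 named genes, 9 had a cluster, which was the only one for each, and Nfkb1 is not analysed here. The 9 genes belong to 30176 genes with a cluster of their own, of which 15559 (the expressed genes) had a mean above a dim limit of 4.66 on the log2 scale, set by 95% of the odorant and vomeronasal receptor genes lying below it. All 9 lay above it.

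RNA was profiled in M12-5B3, a p53-deficient mouse B lymphoma line of germinal center type whose tet-controlled RAG1 and GFP-RAG2 transgenes were kept silent with tetracycline in every group. USFKD cells carried lentiviral shRNAs against both Usf1 and Usf2, the genes of 2 upstream stimulatory factors that bind E-boxes of the sequence CACGTG, and sshRNA cells carried a scrambled shRNA, both after puromycin selection. Each line was sampled without irradiation (no IR), 1 day after 5 Gy (1d IR) and 7 days after 5 Gy (7d IR), with 3 arrays in each of the 6 groups and 18 in all. The comparisons ask how loss of USF and recovery from radiation relate to the expression of these genes. Both lines are clones selected after transduction, and the sources used here do not say whether the replicates of a line came from 1 clone or several. In these arrays USF depletion therefore cannot be told apart from other differences between the clones. With 1 unirradiated time per line, radiation cannot be told apart from time in culture. The paper's RT-qPCR on separate replicates also showed Nfkbid higher in USFKD cells than in untreated sshRNA cells. In untreated cells depleted of USF1 or USF2 alone, the paper reported Nfkbia altered in both. It reported Nfkbid raised more strongly after USF2 than after USF1 depletion. Those singly depleted cells were not on these arrays. The paper calls the replicates of each condition independent, and they sample these lines only. The p-values set a difference against the spread between replicates, which was estimated over all 18 arrays.

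In resting cells NF-kB dimers are held in the cytoplasm by IkB proteins, and signals from B cell receptors, CD40, BAFF receptors or Toll-like receptors lead to IkB kinase activity, IkB degradation and entry of the dimers into the nucleus. The classical route releases dimers of Rela or Rel with the Nfkb1 product, and the alternative route processes the Nfkb2 product for dimers with Relb. Many of the genes for inhibitors are themselves NF-kB targets, which closes a feedback loop, and Rel is the subunit best known for survival and proliferation of activated B cells.

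The RefSeq promoters of the genes (250 bases before to 50 bases after a start, build GRCm38.p6) were searched on both strands for the kappaB motif, the consensus NF-kB site, and for the E-box CACGTG, and matches that overlap were counted by their start. RefSeq listed 13 promoters for 8 of the 9 genes, Relb not among them. A kappaB motif was found in 9 of the 13 promoters, from 7 of the 8 genes, against 8.46% of all 32851 promoters of that length, and Rela had none. The E-box was found in 1 of the 13, the first promoter of Tnfaip3, against 7.15% of all promoters. A match is a description of the letters in this window and not evidence of binding. The promoters of the 4 regulator genes with the largest differences between lines are printed with that of Tnfaip3. They are in lower case and 5′ to 3′ on the gene's strand, with kappaB matches and the E-box in capitals. They lie at chr7:30422156-30422455 (+) for the second of the 3 Nfkbid starts, chr12:55492598-55492897 (-) for Nfkbia, chr11:54962891-54963190 (-) for Tnip1, chr7:19822706-19823005 (-) for Bcl3 and chr10:19015361-19015660 (-) for Tnfaip3.
Nfkbid: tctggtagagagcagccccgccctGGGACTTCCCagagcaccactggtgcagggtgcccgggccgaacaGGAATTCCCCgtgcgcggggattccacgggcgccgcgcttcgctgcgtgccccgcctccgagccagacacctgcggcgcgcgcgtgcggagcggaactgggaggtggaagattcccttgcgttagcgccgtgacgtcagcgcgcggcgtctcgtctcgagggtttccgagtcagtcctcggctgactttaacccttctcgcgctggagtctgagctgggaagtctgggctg
Nfkbia: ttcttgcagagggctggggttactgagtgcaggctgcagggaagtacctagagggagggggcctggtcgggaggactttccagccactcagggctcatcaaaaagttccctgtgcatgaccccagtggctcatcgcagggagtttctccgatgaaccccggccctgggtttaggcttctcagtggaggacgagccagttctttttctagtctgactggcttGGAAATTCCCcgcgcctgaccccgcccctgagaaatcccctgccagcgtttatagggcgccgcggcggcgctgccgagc
Tnip1: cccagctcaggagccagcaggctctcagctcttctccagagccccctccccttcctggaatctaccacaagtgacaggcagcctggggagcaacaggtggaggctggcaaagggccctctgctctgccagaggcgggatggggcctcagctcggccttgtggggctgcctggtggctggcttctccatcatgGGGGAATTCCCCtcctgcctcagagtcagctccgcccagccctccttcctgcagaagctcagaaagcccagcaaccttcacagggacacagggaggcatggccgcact
Bcl3: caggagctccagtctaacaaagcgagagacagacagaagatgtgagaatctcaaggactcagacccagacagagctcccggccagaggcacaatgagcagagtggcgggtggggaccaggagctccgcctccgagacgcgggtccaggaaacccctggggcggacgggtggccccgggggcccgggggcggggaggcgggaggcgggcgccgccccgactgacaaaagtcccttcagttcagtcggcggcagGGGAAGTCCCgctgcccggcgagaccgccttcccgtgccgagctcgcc
Tnfaip3: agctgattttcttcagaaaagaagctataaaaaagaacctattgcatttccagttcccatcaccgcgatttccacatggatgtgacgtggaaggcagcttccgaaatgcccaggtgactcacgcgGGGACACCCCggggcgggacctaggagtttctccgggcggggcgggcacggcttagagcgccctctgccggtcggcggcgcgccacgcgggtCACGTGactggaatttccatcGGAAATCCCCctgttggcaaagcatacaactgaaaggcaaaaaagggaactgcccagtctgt
The Nfkbia match starts 29 bases before the start and the 3 overlapping Tnip1 matches 58, 57 and 56 bases before it. In Nfkbid the 2 matches start 226 and 181 bases before the second start, and in Bcl3 the match starts 2 bases after it. The Tnfaip3 E-box lies 33 bases before the start, between kappaB matches that start 125 and 12 bases before it.

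Replicate arrays correlated at 0.986 to 0.994. Usf2, read from the brighter of its 2 clusters, was lower in USFKD cells at every time. The log2 differences were -2.15 ± 0.16 (SE) at no IR, -1.95 ± 0.16 at 1d IR and -3.39 ± 0.16 at 7d IR. Between no IR and 7d IR Usf2 rose by 0.90 in sshRNA cells (limma adjusted p = 0.000541) and was not called in USFKD cells. This response differed between the lines by -1.24 (limma adjusted p = 0.0115). Usf1 differed between the lines by -0.07, -0.10 and -0.11 and was not called. The Usf1 cluster was dim, with a mean of 5.21 beside the dim limit of 4.66. Whether it can resolve a change was not tested. The paper's Western blot showed USF1 protein reduced in USFKD cells. All 8 measured B cell markers lay above the dim limit, and none of the 5 T cell or 6 myeloid markers did, with group means of at most 4.93 and 4.65. Of 5 plasma cell markers 4 also lay above it (Jchain, Prdm1, Sdc1 and Xbp1), with group means of up to 14.39. Between the lines at no IR, 1 B cell marker was called higher in USFKD cells, Blnk (2.39), and 3 were lower, among them Ebf1 (-1.52). Of all expressed genes 4.50% were called higher and 8.51% lower there. At 7d IR against no IR, 1 B cell marker was higher and 4 were lower in USFKD cells (median -0.47). In sshRNA cells 4 were lower (median -0.65). Of all expressed genes 19.0% were called in USFKD cells (9.83% higher and 9.13% lower). In sshRNA cells 31.5% were called (15.2% higher and 16.3% lower). The 6 arrays of 7d IR stood apart in their hybridization spikes, with a mean of 9.76 to 10.4 against 8.84 to 9.49 on the other 12 arrays. Their median over negative controls was 5.46 to 5.67 against 4.93 to 5.47, which overlapped. The part of these shifts in results that involve 7d IR was not tested. On some arrays most of the 9 genes were at one end of their group: replicate 2 of sshRNA 1d IR was the lowest for all 9, and replicate 3 of USFKD no IR the lowest for 8.

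**Figure D1:**
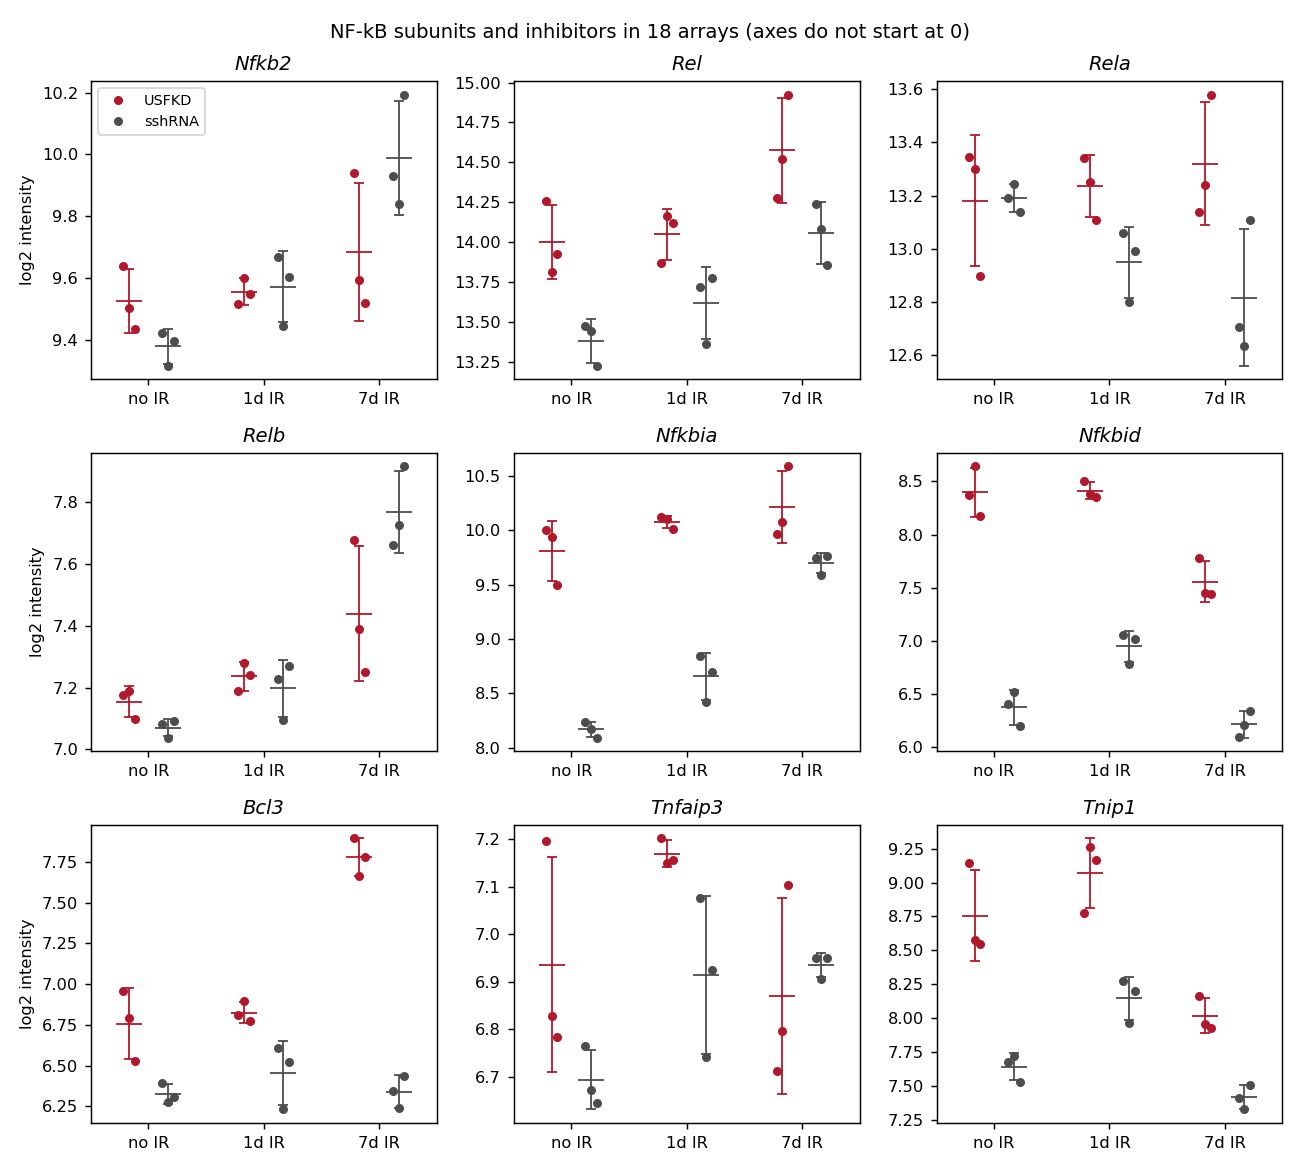
Log2 intensity of the 9 genes (vertical axes, which do not start at 0) in USFKD (red) and sshRNA (grey) cells at no IR, 1d IR and 7d IR; points are arrays, lines are means and bars are 1 SD, with 3 arrays per group. Rel, Nfkbia, Nfkbid, Bcl3 and Tnip1 arrays of USFKD lie above those of sshRNA at each time, Bcl3 stands out in USFKD 7d IR, and Nfkbia in sshRNA approaches USFKD at 7d IR.

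The inhibitors Nfkbid, Nfkbia and Tnip1 and the subunit Rel were higher in USFKD cells than in sshRNA cells before irradiation. A gene was called at an adjusted p under 0.05 in limma and a fold change over 1.5. Counts at an unadjusted p are given for the 9 genes without the share of all expressed genes, and nothing is read from them. At no IR, 4 of the 9 genes were called higher and 0 lower, where 13.0% of expressed genes were called, 4.50% higher and 8.51% lower. The median difference of the 9 genes was 0.43 and that of all expressed genes -0.02 on the log2 scale. At 1d IR, 3 were higher (Nfkbid, Nfkbia, Tnip1) and 0 lower, with 10.3% of expressed genes called, 5.23% higher and 5.09% lower, and the medians were 0.37 and 0.02. At 7d IR, 3 were again higher (Bcl3, Nfkbid, Tnip1) and 0 lower, with 16.5% of expressed genes called, 7.31% higher and 9.19% lower, and the medians were 0.51 and -0.03. For the lower direction limma gave no gene of the 9 at an unadjusted p under 0.05 at no IR or 1d IR, and 2 at 7d IR. Among genes called in these bulk arrays, a change in the share of cells that express a gene and a change in its RNA per cell cannot be told apart.

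**Figure D2:**
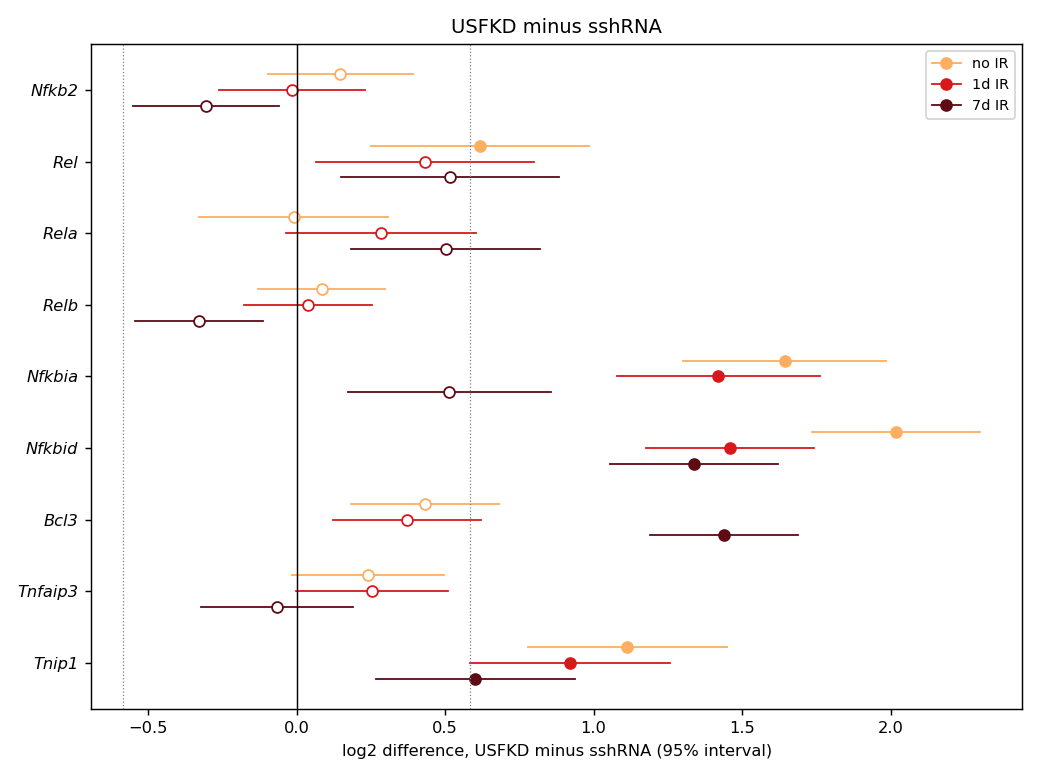
Log2 difference (horizontal axis) of USFKD minus sshRNA for the 9 genes at no IR, 1d IR and 7d IR, with 95% intervals from limma; filled points were called and dotted lines mark a fold change of 1.5 either way. Nfkbid lies between 1.34 and 2.02 at all 3 times, while the Nfkbia difference is 0.51 and that of Bcl3 1.44 at 7d IR.

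Rel encodes c-Rel, a subunit with a transactivation domain that is abundant in lymphoid cells. Its log2 levels at no IR were 14.26, 13.81 and 13.93 in USFKD cells, against 13.48, 13.44 and 13.22 in sshRNA cells. The lowest USFKD array lay above the highest sshRNA array, and the difference of 0.62 ± 0.17 (SE) was a 1.54-fold higher level with a limma adjusted p of 0.0404. That call sat near both thresholds and was lost in 10 of 27 alternative settings, with differences of 0.49 to 0.71 and adjusted p up to 0.187 over all settings: without moderation, with the replicate block, and without any 1 of sshRNA no IR replicates 1, 2 and 3, USFKD no IR replicates 1 and 3, USFKD 1d IR replicate 3, sshRNA 7d IR replicate 2 and USFKD 7d IR replicate 2. At 1d IR the arrays read 13.87, 14.16 and 14.12 in USFKD cells and 13.72, 13.36 and 13.77 in sshRNA cells, and the difference of 0.43 was not called (adjusted p = 0.223). At 7d IR they read 14.28, 14.52 and 14.92 in USFKD cells and 14.24, 14.08 and 13.85 in sshRNA cells, again without overlap, and the difference of 0.52 was not called (adjusted p = 0.0677), though it was 0.66 and called without USFKD 7d IR replicate 1. The order of the group means ran USFKD 7d IR, sshRNA 7d IR, USFKD 1d IR, USFKD no IR, sshRNA 1d IR and sshRNA no IR, and neighbours in it were separated only after the first and the fourth. Within sshRNA cells Rel was 1.60-fold higher at 7d IR than at no IR (0.68 ± 0.17, adjusted p = 0.00754; 0.57 and not called after cyclic loess), and within USFKD cells the difference was 0.58 ± 0.17, with an adjusted p of 0.0311 but a fold change of 1.49 (0.71 and called without USFKD no IR replicate 1, and 0.72 and called without USFKD 7d IR replicate 1).

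Nfkb2, whose p100 product is both an inhibitor and the precursor of p52, and Relb, its partner in the alternative route, followed each other. Over the 18 arrays their levels had a Pearson correlation of 0.96, a description across arrays that share 6 conditions. In sshRNA cells Nfkb2 read 9.93, 9.84 and 10.19 at 7d IR against 9.42, 9.32 and 9.40 at no IR, and Relb read 7.66, 7.73 and 7.92 against 7.08, 7.04 and 7.09. Neither pair of groups overlapped: Nfkb2 rose by 0.61 ± 0.11 (1.53-fold, limma adjusted p = 0.000961) and Relb by 0.70 ± 0.10 (1.62-fold, adjusted p = 0.000105). The Nfkb2 call was lost without sshRNA no IR replicate 2 and without sshRNA 7d IR replicate 3, where the difference fell to as little as 0.51 with the adjusted p at 0.0108 or below. In USFKD cells Nfkb2 read 9.94, 9.59 and 9.52 at 7d IR against 9.64, 9.50 and 9.44 at no IR, and Relb 7.68, 7.39 and 7.25 against 7.18, 7.19 and 7.10. The Nfkb2 groups overlapped and those of Relb did not, but neither difference was called (0.16, adjusted p = 0.394, and 0.28, adjusted p = 0.0668). Replicate 1 of USFKD 7d IR was the highest of its group for both genes. Between lines, both genes differed by at most 0.15 at no IR and 1d IR, and at 7d IR the differences of USFKD minus sshRNA were -0.30 for Nfkb2 (adjusted p = 0.109) and -0.33 for Relb (adjusted p = 0.0475, under the fold limit).

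Rela, which encodes p65, the transactivating subunit of the most common NF-kB dimer, was called in no comparison. At no IR it read 13.34, 13.30 and 12.90 in USFKD cells and 13.19, 13.24 and 13.14 in sshRNA cells. The groups overlapped, and the difference was -0.01 with a 95% interval of -0.33 to 0.31. At 1d IR it read 13.34, 13.25 and 13.11 in USFKD cells and 13.06, 12.80 and 12.99 in sshRNA cells, a difference of 0.28 with an interval of -0.03 to 0.60. At 7d IR it read 13.14, 13.24 and 13.58 in USFKD cells and 12.71, 12.64 and 13.11 in sshRNA cells. All USFKD arrays lay above the sshRNA arrays there, and the difference was 0.50 ± 0.15 (adjusted p = 0.0413, 1.42-fold). Without USFKD 7d IR replicate 1 it was 0.59 and without sshRNA 7d IR replicate 3 it was 0.65, both of which were called. All neighbours in the order of its 6 group means overlapped.

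Nfkbia encodes IkB-alpha, the inhibitor that masks classical dimers in the cytoplasm and is resynthesised on NF-kB activation. At no IR it read 10.00, 9.93 and 9.49 in USFKD cells, against 8.23, 8.18 and 8.09 in sshRNA cells. At 1d IR it read 10.12, 10.10 and 10.01 in USFKD cells, against 8.85, 8.42 and 8.70 in sshRNA cells. The USFKD arrays lay more than 1 log2 unit above the sshRNA arrays at both times, and the differences were 1.64 ± 0.16 (3.12-fold, limma adjusted p = 1.03e-05) and 1.42 ± 0.16 (2.68-fold, adjusted p = 4.99e-05). Of the 15559 expressed genes, 34 had a difference at no IR at or above that of Nfkbia, itself included. At 7d IR the arrays read 9.97, 10.08 and 10.59 in USFKD cells, against 9.74, 9.59 and 9.76 in sshRNA cells, which still did not overlap, but the difference was 0.51 ± 0.16 with an adjusted p of 0.0512. Without USFKD 7d IR replicate 1, the lowest USFKD array, it was 0.64 and called. Over the same time Nfkbia rose by 1.53 ± 0.16 between no IR and 7d IR in sshRNA cells (2.89-fold, adjusted p = 6.56e-06) and by 1.04 between 1d IR and 7d IR (adjusted p = 0.000322), while in USFKD cells the 7d IR minus no IR difference was 0.40 (adjusted p = 0.105).

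Nfkbid encodes an atypical IkB protein, IkB-NS, that acts in the nucleus and is needed in mice for B-1 cells and for full B cell responses. It had the largest difference between lines among the 9 genes at no IR. The arrays read 8.37, 8.64 and 8.18 in USFKD cells, against 6.41, 6.52 and 6.20 in sshRNA cells, a difference of 2.02 ± 0.13 (4.05-fold, adjusted p = 2.06e-07). Of the expressed genes, 16 lay at or above it, itself included. At 1d IR they read 8.50, 8.38 and 8.35 in USFKD cells, against 7.06, 6.79 and 7.02 in sshRNA cells, and at 7d IR 7.78, 7.45 and 7.44 against 6.10, 6.21 and 6.35. No USFKD array overlapped an sshRNA array at any time, and the differences were 1.46 ± 0.13 (2.75-fold, adjusted p = 5.98e-06) and 1.34 ± 0.13 (2.53-fold, adjusted p = 1.13e-05). Within USFKD cells Nfkbid fell by 0.84 between no IR and 7d IR (adjusted p = 0.000525), and between 1d IR and 7d IR it fell by 0.85 in USFKD cells (adjusted p = 0.000551) and by 0.74 in sshRNA cells (adjusted p = 0.0011). In sshRNA cells the 1d IR minus no IR difference was 0.57 (adjusted p = 0.0302, 1.49-fold), just under the fold limit, and that for 7d IR minus no IR was -0.16 (adjusted p = 0.367).

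Bcl3 encodes a nuclear IkB family protein that binds p50 and p52 dimers and can turn them into activators, and in humans it was found at a translocation of chronic lymphocytic leukemia. Its arrays at no IR read 6.96, 6.79 and 6.53 in USFKD cells, against 6.39, 6.28 and 6.31 in sshRNA cells. They did not overlap, but the difference of 0.43 (adjusted p = 0.035, 1.35-fold) was under the fold limit. At 1d IR they read 6.81, 6.90 and 6.77 in USFKD cells and 6.61, 6.23 and 6.52 in sshRNA cells (0.37, adjusted p = 0.0922). At 7d IR the arrays read 7.90, 7.66 and 7.78 in USFKD cells, against 6.34, 6.24 and 6.44 in sshRNA cells. That was a difference of 1.44 ± 0.12 (2.71-fold, limma adjusted p = 1.63e-06). In USFKD cells Bcl3 rose by 1.02 ± 0.12 between no IR and 7d IR (2.03-fold, adjusted p = 4.57e-05) and by 0.95 between 1d IR and 7d IR (adjusted p = 8.6e-05). In sshRNA cells the difference between 7d IR and no IR was 0.01, with a 95% interval of -0.24 to 0.26, and the 5 groups other than USFKD 7d IR overlapped with their neighbours in the order of means.

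Tnip1 encodes ABIN1, a ubiquitin-binding protein that works with A20 to restrain NF-kB and cell death signalling. At no IR it read 9.15, 8.58 and 8.54 in USFKD cells, against 7.68, 7.72 and 7.53 in sshRNA cells, a difference of 1.11 ± 0.16 (2.16-fold, adjusted p = 0.000316). At 1d IR it read 8.77, 9.26 and 9.16 in USFKD cells, against 8.27, 7.97 and 8.20 in sshRNA cells (0.92 ± 0.16, adjusted p = 0.00186). At 7d IR it read 8.16, 7.96 and 7.93 in USFKD cells, against 7.41, 7.33 and 7.51 in sshRNA cells (0.60 ± 0.16, 1.52-fold, adjusted p = 0.0212). The lines did not overlap at any time, though the 7d IR call, close to the fold limit, was lost in 6 of 27 settings, among them cyclic loess, centring of each array and the fits without USFKD 7d IR replicate 1 or without sshRNA 7d IR replicate 1 or 2 (0.53 to 0.65 and adjusted p up to 0.0729 over all settings). Between 1d IR and 7d IR Tnip1 fell by 1.05 in USFKD cells (adjusted p = 0.000424) and by 0.73 in sshRNA cells (adjusted p = 0.00364). It also fell by 0.74 between no IR and 7d IR in USFKD cells (adjusted p = 0.00434), a call lost without USFKD no IR replicate 1, where the difference was -0.54, and in the fit of only the arrays compared.

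Tnfaip3 encodes A20, the ubiquitin-editing enzyme that shuts off signalling upstream of the IkB kinases and is inactivated in many human B cell lymphomas. It was called in no comparison. At no IR it read 7.20, 6.83 and 6.78 in USFKD cells and 6.77, 6.67 and 6.65 in sshRNA cells, and the difference of 0.24 had a 95% interval of -0.02 to 0.50. At 1d IR it read 7.20, 7.15 and 7.16 in USFKD cells and 7.08, 6.74 and 6.93 in sshRNA cells. The USFKD arrays lay above the sshRNA arrays at both times, but the 1d IR difference of 0.25 had an adjusted p of 0.358. At 7d IR it read 6.71, 6.80 and 7.10 in USFKD cells and 6.95, 6.91 and 6.95 in sshRNA cells, which overlapped, and the difference was -0.07 with an interval of -0.32 to 0.19. All neighbours among its 6 group means overlapped.

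Against no IR, none of the 9 genes was called at 1 day, and at 7 days the called genes went in both directions in USFKD cells and upward in sshRNA cells. At 1d IR 0 of 9 were called in USFKD cells, where limma called 0% of expressed genes, 0 of the 9 had an unadjusted p under 0.05 and the smallest adjusted p was 0.649. In sshRNA cells 0 of 9 were called as well, with 3 at an unadjusted p under 0.05, where 3.16% of expressed genes were called, 2.22% higher and 0.938% lower. Nfkbid was called there without sshRNA 1d IR replicate 2 (0.66), the array lowest for all 9 genes, and with each array centred (0.60). At 7d IR, on arrays whose spikes were higher in both lines, USFKD cells had against no IR 1 gene higher (Bcl3) and 2 lower (Nfkbid and Tnip1), with 19.0% of expressed genes called, 9.83% higher and 9.13% lower. In sshRNA cells 4 were higher (Nfkbia, Relb, Rel and Nfkb2) and 0 lower, with 31.5% of expressed genes called, 15.2% higher and 16.3% lower, and limma gave 1 lower difference at an unadjusted p under 0.05, that of Rela (-0.37). The medians of the 9 genes were 0.16 in USFKD cells and 0.24 in sshRNA cells, beside 0.01 and -0.02 for all expressed genes. Against 1d IR, the genes called at 7d IR were Bcl3 (higher), Nfkbid and Tnip1 (lower) in USFKD cells, where 17.1% of expressed genes were called (6.25% higher and 10.9% lower), and Nfkbia (higher), Nfkbid and Tnip1 (lower) in sshRNA cells, where 24.8% were called (12.4% in each direction).

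**Figure D3:**
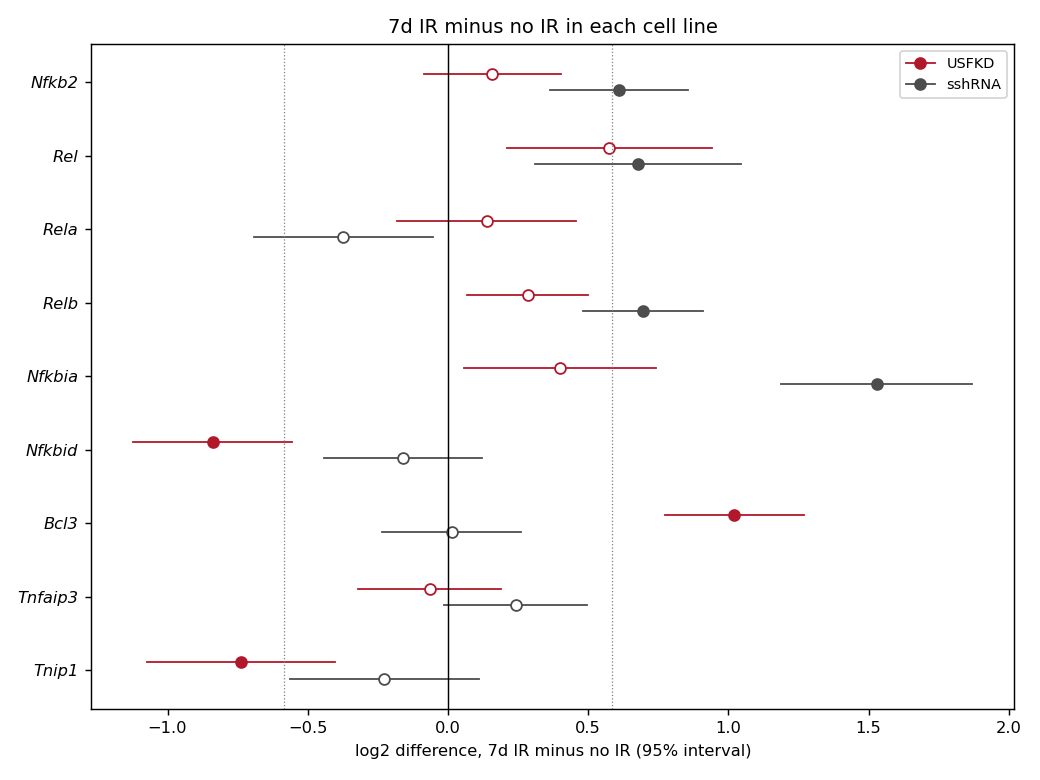
Log2 difference (horizontal axis) of 7d IR minus no IR for the 9 genes in USFKD (red) and sshRNA (grey) cells, with 95% intervals from limma; filled points were called and dotted lines mark a fold change of 1.5 either way. Bcl3 differs by 1.02 in USFKD and 0.01 in sshRNA cells, and Nfkbia by 0.40 in USFKD and 1.53 in sshRNA cells.

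Whether the lines differed in their response was tested as the interaction of line and radiation. For 7 days the interaction was called for 2 of the 9 genes, where 5.56% of expressed genes were called, 3.82% with a higher and 1.74% with a lower value in USFKD cells. An unadjusted p under 0.05 held for 7 of the 9, a count without the share of all expressed genes, so nothing is read from it. The 7 included Nfkb2 (-0.45, limma adjusted p = 0.167) and Tnip1 (-0.51, adjusted p = 0.258), neither of them called. The Bcl3 response was 1.01 ± 0.16 greater in USFKD than in sshRNA cells (limma adjusted p = 0.00747), and the Nfkbia response differed by -1.13 ± 0.23 (adjusted p = 0.0193). The Bcl3 interaction was called in all 27 settings. That of Nfkbia was lost in 2, without sshRNA no IR replicate 2 and in the fit of only the arrays compared, with adjusted p up to 0.0584 and values over all settings of -1.32 to -1.01. For Nfkbid it was -0.68 (adjusted p = 0.0737) and was called in 3 settings, among them the fit without USFKD 7d IR replicate 1 (-0.79), for Rela 0.51 (adjusted p = 0.232) and for Relb -0.41 (adjusted p = 0.151). For 1 day 0 of 9 were called, 0% of expressed genes were called, 1 of the 9 had an unadjusted p under 0.05 and the smallest adjusted p was 0.663.

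The genes on some chromosomes differed between the lines as a group, and the members are given beside these values. On chromosome 12, which carries Nfkbia, the median USFKD minus sshRNA difference of 572 expressed genes was 0.17 at no IR, 0.24 at 1d IR and 0.17 at 7d IR, against -0.02, 0.02 and -0.03 over all chromosomes. On chromosome 11, which carries Rel and Tnip1, it was 0.16, 0.24 and 0.14 over 1256 genes, and on chromosome 7, which carries Nfkbid, Bcl3 and Relb, it was -0.01, 0.02 and -0.0028 over 1055 genes. For chromosome 10, which carries Tnfaip3, it was -0.13, -0.08 and -0.09 over 709 genes. For chromosome 19, which carries Nfkb2 and Rela, it was 0.03, 0.08 and 0.01 over 468 genes. Of the 8 expressed genes nearest to Nfkbia, 4 on each side, 4 were called higher at no IR, 3 at 1d IR and 3 at 7d IR, with medians of 0.51, 0.42 and 0.28, and 1 was lower at 7d IR. Among them were Gm2446 (0.84), Ppp2r3c (0.62) and Brms1l (0.69) at no IR. Of all expressed genes 4.50% were called higher at no IR, 5.23% at 1d IR and 7.31% at 7d IR. The shares called lower were 8.51%, 5.09% and 9.19%. The neighbours of Nfkbid and of Tnip1 had 1 of 8 higher at each time, Tnip1 also had 1 lower at no IR and 1 at 7d IR (Anxa6, -0.91 and -1.47), and those of Bcl3 had medians of 0.03, 0.13 and -0.03. Of the 8 neighbours of Tnfaip3, 2 were lower at no IR, 0 at 1d IR and 3 at 7d IR, and 0 were higher. Their medians were -0.29, -0.34 and -0.26. The part of such regional differences in the results was not tested, and neighbours were looked up after the members' values had been seen.

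Across the 18 arrays, Nfkbid and Tnip1 had a Pearson correlation of 0.91 and Rel and Nfkbia one of 0.87, while the lowest was that of Relb and Tnip1 at -0.38. Among 4357 expressed genes whose group means spanned at least 1 log2 unit, the profiles most like Nfkbid were those of Kif19a (0.98), the DNA repair gene Brca1 (0.97) and Smcr8 (0.97), those most like Bcl3 were Heg1 (0.98), Lasp1 (0.96) and Ermn (0.95), and those most like Nfkbia were Ppp3cc, Rps24 and Slc38a2 (0.95 each). For Tnip1 they were Wdr90, Pkd1l3 and Hps5 (0.98 each), and for Rel G730013B05Rik (0.98), Zfp62 (0.97) and Zc3h6 (0.95). Heg1, the gene most like Bcl3, had group means of 8.23, 8.38 and 9.69 at no IR, 1d IR and 7d IR in USFKD cells and 7.58, 7.62 and 7.63 in sshRNA cells. These correlations describe arrays that share 6 conditions and are given without a p.

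The rest of the pathway was read from lists of receptors, adaptors and kinases, other inhibitors and brakes, and target genes. Of the measured genes, 8 of 12 receptors, 23 of 23 adaptors and kinases, 21 of 22 other brakes and 35 of 49 targets were expressed, and the counts and medians cover all measured genes of a list. At no IR, 1 of 12 receptors was higher in USFKD cells, Tnfrsf13b (1.27), which encodes the BAFF and APRIL receptor TACI, and 1 was lower, the endotoxin receptor gene Tlr4 (-0.75). Of 23 adaptors and kinases 2 were called, both lower: Myd88 (-1.08), the adaptor of Toll-like receptors, and Tab3 (-0.87), a partner of the kinase TAK1. Among 22 other inhibitors and brakes, Nfkbiz (0.80), another nuclear IkB gene, was higher and Traf1 (-0.81) lower. Of 49 targets 2 were higher and 6 lower, with Cd83 (1.31), an activation marker of B cells, at one end and Irf8 (-1.19), a transcription factor gene of germinal center B cells, and Ltb (-1.10), the lymphotoxin beta gene, at the other. Of all expressed genes, 13.0% were called in this comparison, 4.50% higher and 8.51% lower, and nothing is read from the lists as particular to them. The list medians lay between -0.0089 and 0.044, beside -0.02 for all expressed genes.

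**Figure D4:**
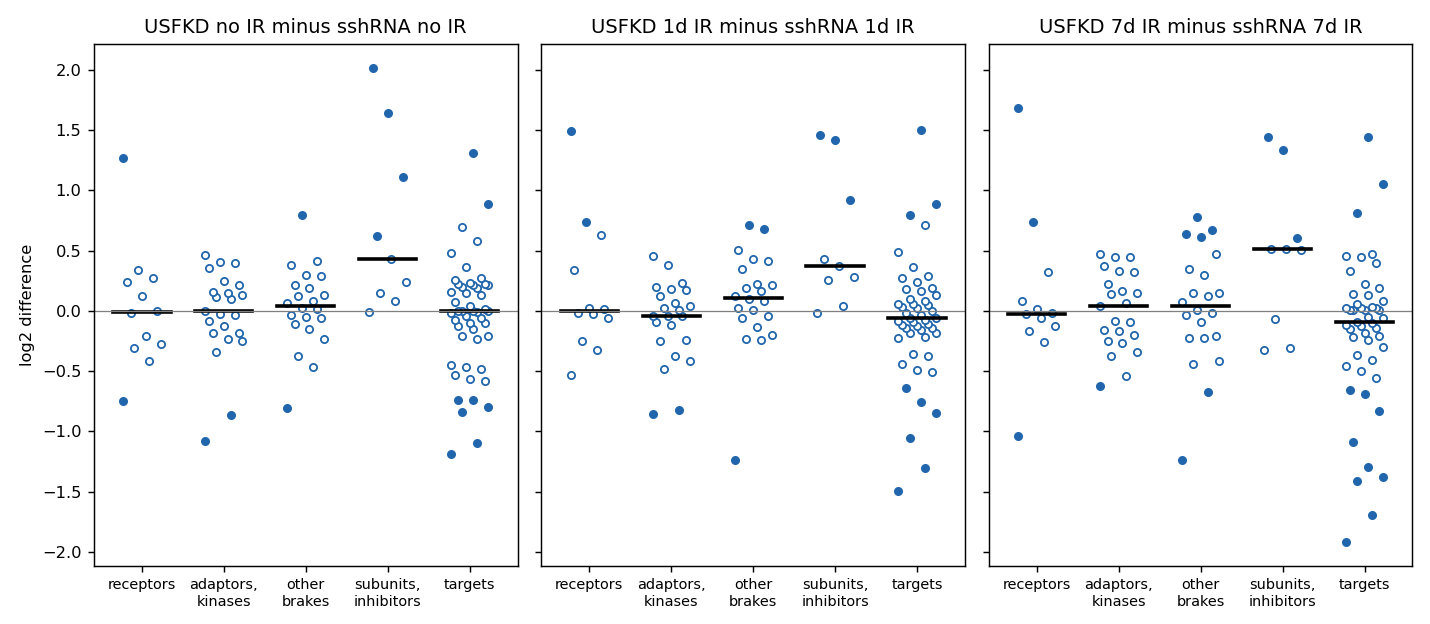
Log2 difference (vertical axis) of USFKD minus sshRNA at no IR, 1d IR and 7d IR for each measured gene of 5 lists; filled points were called in limma and bars are list medians. The subunits and inhibitors have medians of 0.43, 0.37 and 0.51, and the medians of the other lists lie between -0.09 and 0.11.

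At 1d IR the counts of higher and lower genes were 2 and 1 for other brakes and 3 and 6 for targets, the 2 called receptors were higher and the 2 called adaptors lower. Tnfrsf13b (1.49), the CpG DNA receptor gene Tlr9 (0.74), Nfkbiz (0.71), and Otud7b (0.68) were higher, as was Cd83, and Myd88 (-0.86), Tab3 (-0.83), Traf1 (-1.24), Irf8 (-1.30) and B2m, the class I light chain gene, lower in USFKD cells (-1.49, with sshRNA values above 16, where the path from scan to value is not settled, so that its differences hold on the deposited scale only). Of all expressed genes 10.3% were called at 1d IR (5.23% higher and 5.09% lower) and 16.5% at 7d IR (7.31% higher and 9.19% lower). At 7d IR they were 2 and 1 for receptors, 4 and 2 for other brakes and 3 and 9 for targets, and the 1 called adaptor was lower. The BAFF receptor gene Tnfrsf13c (1.68), Tnfrsf13b (0.73), Nfkbiz (0.78) and Irf4 (1.44) were then higher, and Cd40 (-1.04), Tab3 (-0.63), Traf1 (-1.23), the IkB-beta gene Nfkbib (-0.67), Ltb (-1.92) and B2m (-1.70) lower. The list medians at 1d IR and 7d IR ran from -0.09 for targets at 7d IR to 0.11 for other brakes at 1d IR, beside 0.02 and -0.03 for all expressed genes.

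Within the lines, several receptor genes were lower at 7d IR than at no IR. In USFKD cells 4 receptors were called, all lower, among them Tlr9 (-2.24), Tnfrsf13b (-1.24) and the TNF receptor gene Tnfrsf1b (-0.82). In sshRNA cells 1 was higher and 6 lower, among them Tlr9 (-2.29), Tlr4 (-1.38) and Tnfrsf13c (-1.26). Of the adaptors and kinases 2 were higher and 2 lower in USFKD cells and 4 and 4 in sshRNA cells: the IkB kinase gene Ikbkb was lower in both (-0.95 in USFKD, -0.99 in sshRNA) and Birc3, for the ubiquitin ligase cIAP2, higher in both (0.87 in USFKD, 1.32 in sshRNA). Other brakes had 1 higher in USFKD cells, Otulin (0.63), and 2 higher and 1 lower in sshRNA cells, namely Nfkbie (0.87), Traf1 (0.67) and N4bp1 (-0.94). Targets had 1 higher and 5 lower in USFKD cells, with the immediate early gene Egr1 (-1.44) and Tnf (-1.07) among the lower, and 6 higher and 4 lower in sshRNA cells, with B2m (1.30), the chemokine receptor gene Ccr7 (1.26) and Ltb (1.14) among the higher. Of all expressed genes 19.0% were called in USFKD cells (9.83% higher and 9.13% lower) and 31.5% in sshRNA cells (15.2% higher and 16.3% lower). The lower receptor genes stood beside the lower B cell markers given above, whose part in this was not tested. The target medians were 0.10 in USFKD and 0.09 in sshRNA cells, and the receptor medians -0.20 and -0.61. The interaction at 7 days was called for 1 receptor, Tlr4 (0.83), and for 3 targets, Tnf (-1.49), H2-K1 (-1.20) and Ltb (-0.82), beside 5.56% of all expressed genes.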

How the data were processed

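The authors deposited log2 intensities of 18 Affymetrix Mouse Transcriptome 1.0 arrays made by robust multi-array averaging (RMA: background adjustment, quantile normalization, log2); the submitters' processing notes name Affymetrix Expression Console and RMA, and the genome build of the probes is not given in the sources used here. In 1339 of 72688 rows a value lies above 16, so differences are on the deposited scale. Per the labels, 3 arrays belong to each group, and their number limits the precision.

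The table holds 65956 transcript clusters and 6732 control rows; 30638 clusters carry 1 gene symbol, 2176 several and 33142 none in the annotation. A model of 6 group means was fitted to all rows by limma (version 3.58.1, R 4.3.3) with 12 residual degrees of freedom, and adjusted by Benjamini-Hochberg within each of 11 contrasts. The study's methods state a linear model with line, treatment and time and the same thresholds (adjusted p under 0.05, fold over 1.5). On simulated arrays with 200 changed genes, the fit was checked for USFKD no IR against sshRNA no IR. It recovered 100% of changes of -2 and 2, 78% of -1 and 78% of 1 on the log2 scale, with 9 false calls among 72688 rows. The simulated noise was independent between rows, without deviations shared by the genes of an array. Changes near the fold limit of 1.5 were not simulated, so recovery there is not known.

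The members and lists were chosen with earlier results of these data known. Named are the members, Usf1 and Usf2, up to 3 called genes of each list and contrast with the largest change, and up to 3 genes whose profile is most like that of a member. Symbols and promoters come from RefSeq tables of GRCm38.p6. Alternatives were cyclic loess, centring each array, leaving dim probes out, weights per array, an intensity trend in the variance prior, a fit without moderation, a fit of the compared groups alone, averaging a gene's clusters, a replicate block and omission of each array. The main fit did not pair arrays by replicate number. Deviations from group means correlated at -0.54 to 0.33 (median 0.053) over 45 same-numbered pairs, of which 15 exceeded 0.1. Over 90 pairs with different numbers they correlated at -0.39 to 0.50 (median -0.020), and 19 exceeded 0.1. These ranges overlap and do not settle whether the numbers mark pairs.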

Additional observations from a re-analysis of the deposited data

Results flagged for a closer look

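Both results below come from the same contrast, the response at 7 days (7d IR minus no IR) of USFKD less that of sshRNA cells, and were picked out because the difference between the lines itself passed the test in limma. The Bcl3 response differed by 1.01: it was 1.02 in USFKD and 0.01 in sshRNA cells. The Nfkbia response differed by -1.13: it was 0.40 in USFKD and 1.53 in sshRNA cells. Both involve the 7d IR arrays, whose hybridization spikes stood apart in both lines.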

How the results depend on the processing

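Of 25 called differences of the 9 genes, 19 were called in all 27 alternative settings, 6 were lost in some and 0 changed sign. The 6 were Rel in USFKD against sshRNA at no IR (lost in 10 settings), Tnip1 in the same lines at 7d IR (6), Nfkb2 in sshRNA at 7d IR against no IR (2), Tnip1 in USFKD at 7d IR against no IR (2), the Nfkbia interaction at 7 days (2) and Rel in sshRNA at 7d IR against no IR (1, cyclic loess, 0.57). Every cluster was the only one of its gene, so averaging clusters left the members' values as they were. Leaving out each array gave 2 to 5 called members for USFKD against sshRNA at 7d IR (5 without USFKD 7d IR replicate 1), 0 to 1 for sshRNA at 1d IR against no IR and 1 to 3 for the interaction at 7 days. Centring each array, which moved its median by -0.11 to 0.10, gave 1 for sshRNA at 1d IR, and the fit of only the arrays compared gave 1 for the interaction at 7 days. With the replicate block, 3 in place of 4 members were called for USFKD against sshRNA at no IR (Rel was lost), and the count was that without the block in the 10 other contrasts. In their deviations from the group means, 6 of 18 arrays correlated best with arrays of their own number.

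Over all expressed genes, the fit of only the arrays compared called 1535 in place of 2568 for USFKD against sshRNA at 7d IR, 1707 in place of 2663 for USFKD at 7d IR against 1d IR and 442 in place of 865 for the interaction at 7 days, which had 401 to 576 without any 1 of sshRNA no IR replicates 1 and 2, USFKD no IR replicate 3, sshRNA 7d IR replicate 2 and USFKD 7d IR replicate 2. For sshRNA at 1d IR against no IR the count of 492 became 907 with array weights and 101 to 281 without any 1 of sshRNA 1d IR replicates 1 and 3 and sshRNA no IR replicates 1, 2 and 3, and for USFKD at 1d IR against no IR the count of 0 became 3 with array weights and 126 without USFKD 1d IR replicate 2. The causes were not tested.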
